A study of Mus musculus with 12 samples.

Results

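The subject is 34 genes of megakaryocytes and platelets, listed by symbol, read in sorted hematopoietic stem cells of Osmr-/- and WT mice. All 34 symbols were found among the 43279 genes of the deposited table. Megakaryocytes are the bone-marrow cells that shed platelets. Platelets stick to damaged vessel walls through surface receptors, are activated by thrombin, ADP and thromboxane, and release stored proteins from granules. A share of long-lived stem cells is known to carry some of these transcripts, Vwf and Itga2b among them, which has been described as platelet bias.

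Each library was made from polyadenylated RNA of 1000 cells from the femurs, tibias and ilium of 1 naive adult mouse, sorted as lineage-negative, KIT+, SCA-1+, FLT3- and CD48-. The Osmr-/- group, lacking the receptor chain for oncostatin M, held 5 libraries (numbers 1, 2, 3, 5 and 6). The WT group of C57BL/6 mice held 6 libraries (numbers 1 to 6). The mice are given as adult with no age or sex, and the Osmr-/- sample numbered 4 was not analysed here. The labels name no promoter or Cre behind the allele. The study's stated interest was the loss of the receptor in the bone marrow niche, and an effect of the niche and one inside the sorted cells cannot be told apart here.

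Read totals were 9.50 to 11.2 M reads in Osmr-/- and 9.89 to 22.1 M reads in WT. Osmr had 4 reads over the Osmr-/- libraries and 13 reads over the WT libraries, at a mean normalised count of 0.875 ± 0.856 in Osmr-/- and 1.60 ± 2.64 in WT (SD, n = 5 and n = 6, exact two-sided permutation p 0.781), so the gene gave no check of the labels. Of the gate's positive markers, Kit averaged 4455 ± 579 in Osmr-/- and 3740.3 ± 460.5 in WT, and Ly6a, which encodes SCA-1, averaged 6893 ± 1837 in Osmr-/- and 5376 ± 1469.6 in WT (SD, n = 5 and n = 6). Transcripts of the markers sorted against were present too: Cd48 averaged 853 in Osmr-/- and 637 in WT, and Flt3 averaged 389 in Osmr-/- and 504 in WT. Among genes of mature lineages the T cell marker Cd3e averaged 0 in Osmr-/- and 0.347 in WT, but the killer cell granule gene Nkg7 averaged 5419 in Osmr-/- and 5239 in WT, the B cell receptor gene Cd79b 453 in Osmr-/- and 950.4 in WT, and the lysozyme gene Lyz2 5131 in Osmr-/- and 8708 in WT. The library Osmr-/- 3 stood apart in some neutrophil genes, S100a8, S100a9, Camp and Ngp, while Ly6g and Ctsg had 0 reads there and Mpo was at 11.6. S100a8 had normalised counts of 271, 346, 10779.9, 47.4 and 74.2 in Osmr-/- 1, 2, 3, 5 and 6, against 19.4 to 180.3 in WT. Libraries numbered 1 to 3 and 4 to 6 differed in some genes, and how many was not counted. The member Ppbp averaged 309 and 82.7 in these sets of Osmr-/-, and 484 and 74.6 in those of WT. The erythroid marker Car2 averaged 37577 and 15410 in the sets of WT, but 11688 and 11009 in those of Osmr-/-. The labels name no batch, so these number sets were defined from the data.

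Promoter windows are shown for 6 genes on which the results turn: Selp, the member of highest log2 fold change, the 4 subunit genes of the GPIb-IX-V receptor, and Pf4, the most abundant member. Each window runs 5′ to 3′ on the gene's strand, from 250 bases before to 50 bases after a RefSeq start, on GRCm38.p6 (the assembly of mm10). The windows lie at chr1:164115014-164115313 for Selp (plus strand), chr11:70638872-70639171 for Gp1ba (plus), chr16:18622354-18622653 for Gp1bb (minus), chr6:87777820-87778119 for Gp9 (plus), chr16:30310732-30311031 for Gp5 (minus) and chr5:90772185-90772484 for Pf4 (plus). Capitals mark GATAA, a core bound by GATA factors, and GGAAG, a core bound by ETS factors. Either strand was marked (TTATC and CTTCC on the other), and the 2 motifs share no base in these windows.
Selp: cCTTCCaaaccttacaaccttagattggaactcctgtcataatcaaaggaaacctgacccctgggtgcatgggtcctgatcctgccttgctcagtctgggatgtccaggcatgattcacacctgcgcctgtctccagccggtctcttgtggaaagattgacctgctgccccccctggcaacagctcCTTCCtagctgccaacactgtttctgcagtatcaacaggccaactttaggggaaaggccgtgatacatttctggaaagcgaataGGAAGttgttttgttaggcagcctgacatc
Gp1ba: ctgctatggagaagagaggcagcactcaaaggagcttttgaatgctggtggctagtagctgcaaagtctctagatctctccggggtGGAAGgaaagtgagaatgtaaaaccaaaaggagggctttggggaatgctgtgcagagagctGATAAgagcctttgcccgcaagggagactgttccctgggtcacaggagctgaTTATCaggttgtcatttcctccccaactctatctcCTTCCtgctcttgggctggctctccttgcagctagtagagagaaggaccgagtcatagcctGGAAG
Gp1bb: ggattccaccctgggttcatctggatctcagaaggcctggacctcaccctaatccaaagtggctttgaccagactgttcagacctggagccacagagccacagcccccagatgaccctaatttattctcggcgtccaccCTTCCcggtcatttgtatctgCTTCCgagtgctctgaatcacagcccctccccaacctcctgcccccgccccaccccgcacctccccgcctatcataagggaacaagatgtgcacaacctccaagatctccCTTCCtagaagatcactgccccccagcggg
Gp9: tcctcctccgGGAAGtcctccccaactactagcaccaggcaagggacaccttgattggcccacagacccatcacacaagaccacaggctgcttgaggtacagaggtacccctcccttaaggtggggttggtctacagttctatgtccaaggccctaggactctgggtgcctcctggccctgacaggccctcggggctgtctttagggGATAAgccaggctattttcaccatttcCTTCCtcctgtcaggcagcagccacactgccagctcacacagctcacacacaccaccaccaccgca
Gp5: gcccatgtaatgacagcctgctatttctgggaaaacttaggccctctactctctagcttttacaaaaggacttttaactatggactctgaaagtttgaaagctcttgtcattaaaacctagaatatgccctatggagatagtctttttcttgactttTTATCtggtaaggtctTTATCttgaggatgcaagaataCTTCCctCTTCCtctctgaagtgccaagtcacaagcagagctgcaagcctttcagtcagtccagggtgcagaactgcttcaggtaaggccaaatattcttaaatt
Pf4: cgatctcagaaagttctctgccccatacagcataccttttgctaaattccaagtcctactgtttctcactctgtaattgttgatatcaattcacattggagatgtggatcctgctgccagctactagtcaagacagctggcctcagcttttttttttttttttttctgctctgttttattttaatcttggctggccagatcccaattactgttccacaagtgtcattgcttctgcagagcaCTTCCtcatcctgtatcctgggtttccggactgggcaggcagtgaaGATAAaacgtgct

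GATAA was present in the windows of Gp1ba, Gp9, Gp5 and Pf4, and absent from those of Selp and Gp1bb. Other forms of the GATA core were not searched, so a window without GATAA may still hold a GATA site. GGAAG was present in all 6. RefSeq windows were found for 29 of the 34 members, 30 windows in all. Of these, 12 held GATAA, beside 25.4% of the 32851 windows of the same length over the genome, and 25 held GGAAG, beside 71.4%. TGTGGT, the RUNX core, was in 4 windows beside 16.8%, and TGAGTCA, bound by NF-E2 and AP-1, was in 2 beside 5.20%, both strands searched. These matches describe letters only and are no evidence of binding.

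Transcripts of a few platelet granule genes were abundant in these cells, while Gp6 and Tubb1, genes of late megakaryocytes and platelets, had almost no reads. Levels were compared between genes as normalised count (reads divided by the library's size factor) per kb of exon in GENCODE M21. Pf4, the platelet chemokine CXCL4, led at 5718 ± 1914 in Osmr-/- and 5593 ± 3187 in WT (SD, n = 5 and n = 6). Mmrn1, which encodes the factor V carrier multimerin, came next at 317 ± 31.1 in Osmr-/- and 353 ± 137 in WT. Ppbp, the other main platelet chemokine gene, had 202 ± 176 in Osmr-/- and 258 ± 298 in WT. Vwf, the adhesive protein used to mark platelet-biased stem cells, was low per length, at 7.49 ± 2.41 in Osmr-/- and 8.45 ± 2.44 in WT, and Itga2b, the αIIb integrin chain also called CD41, had 35.7 ± 14.0 in Osmr-/- and 43.5 ± 14.5 in WT.

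At the other end, Gp6, the platelet collagen receptor gene, had 0 reads in all 11 libraries. Tubb1, the tubulin of the platelet's marginal band, had 2 reads in WT 1 and 0 in the other 10. A count of 0 allows 3 reads in a library, or 1.56 to 3.87 normalised counts, and PCR reads are not independent molecules, so this covers counting error only. Alox12, the 12-lipoxygenase gene, had 15 reads in Osmr-/- and 62 in WT, and Pdgfb, a growth factor gene, had 43 reads in Osmr-/- and 59 in WT. These 4 genes fell short of a normalised count of 10 in 5 libraries and were not tested. The other 30 members were, with the 13358 genes of the table that reached it.

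**Figure D1:**
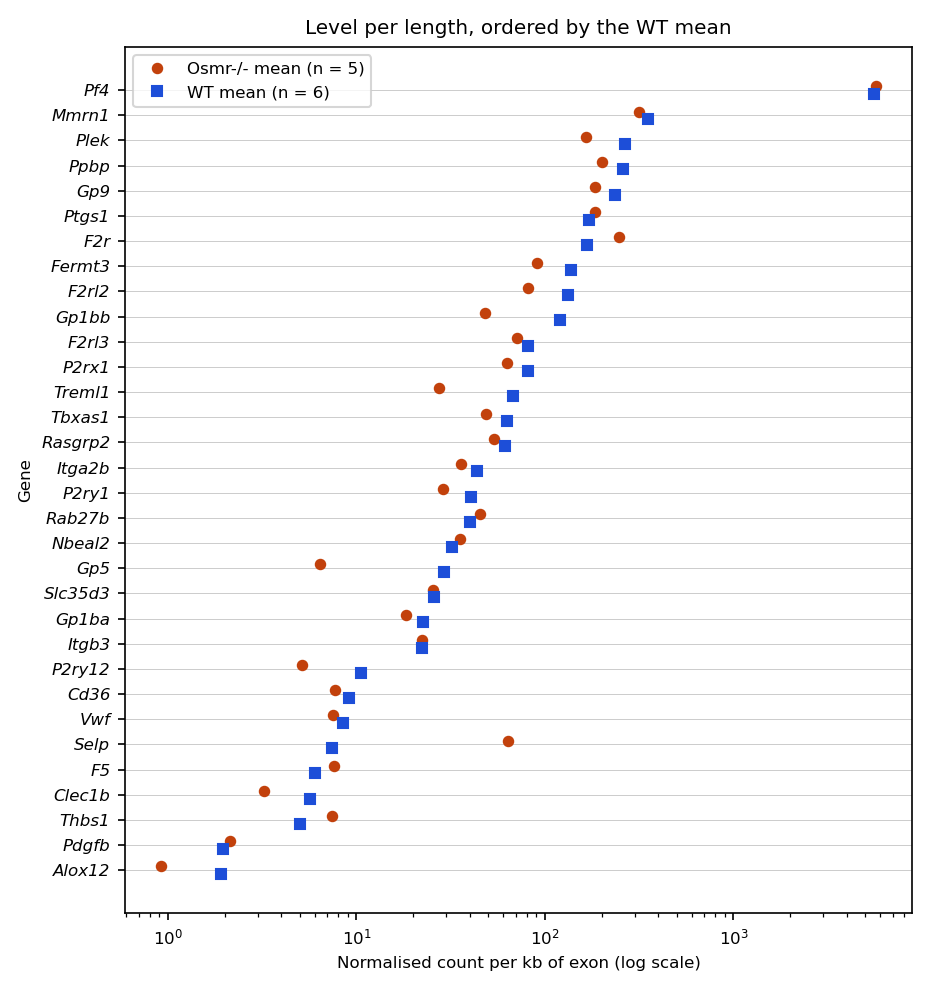
Mean normalised count per kb of exon (horizontal, log scale) of the 32 members with a read in both genotypes, Osmr-/- as circles and WT as squares, ordered by the WT mean. Pf4 stands at 5718 in Osmr-/- and 5593 in WT, and Selp is the gene whose 2 means lie farthest apart, at 63.6 in Osmr-/- and 7.45 in WT.

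**Figure D2:**
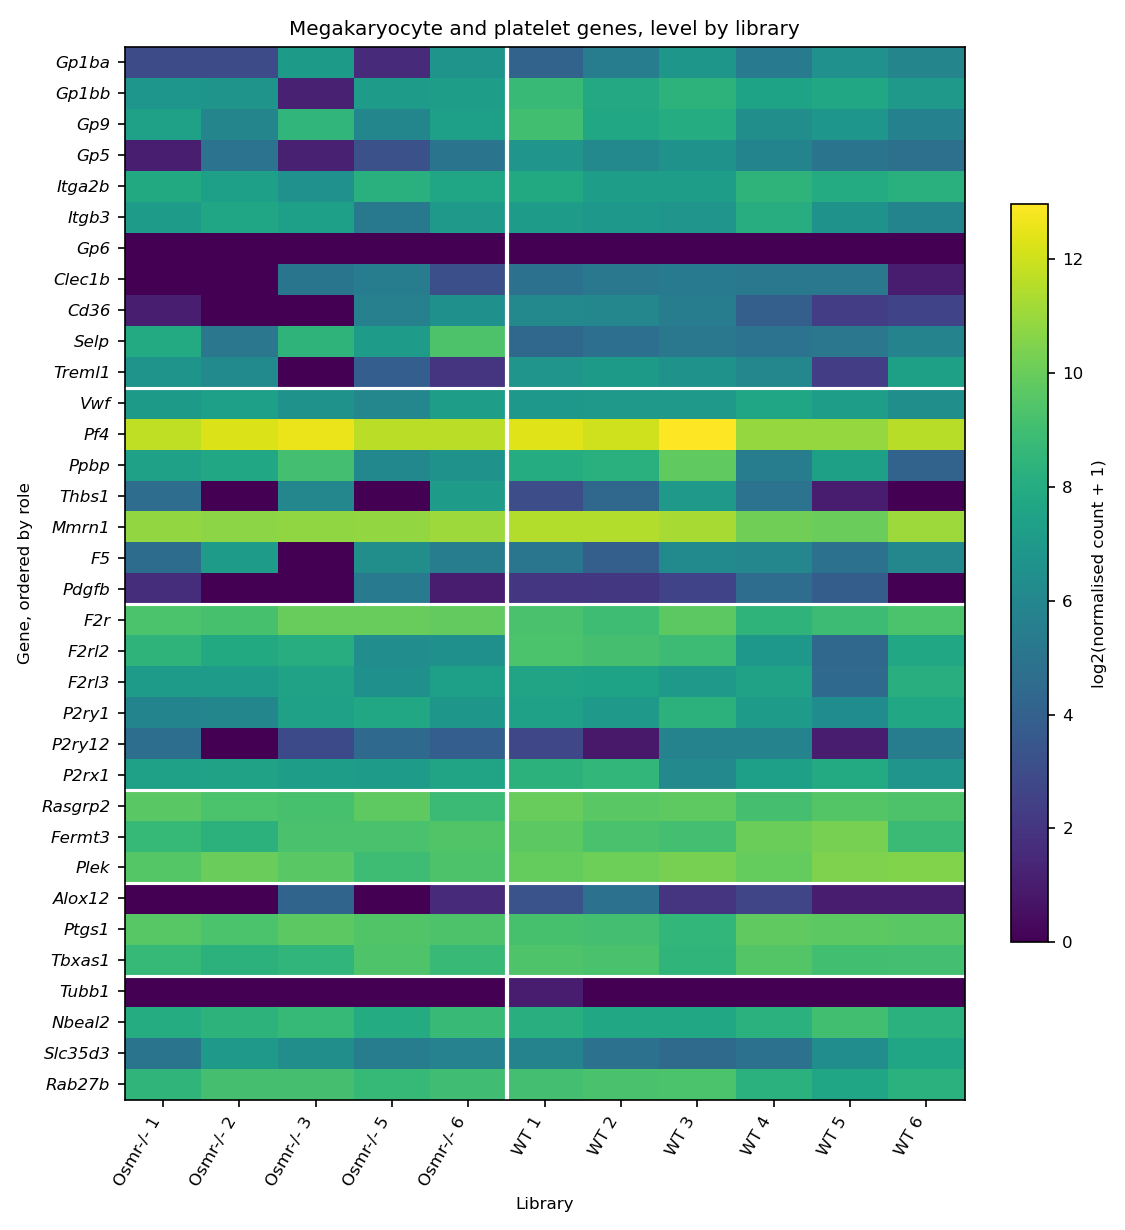
Level of the 34 members in each library as log2(normalised count + 1), Osmr-/- libraries on the left of the white vertical line and WT on the right. White horizontal lines part the roles, from the top: adhesion receptors, granule and secreted proteins, thrombin and nucleotide receptors, integrin signalling, eicosanoid enzymes, and cytoskeleton and granule formation. Pf4 and Mmrn1 are bright in all 11 libraries, Gp6 has 0 reads throughout, and Selp is brighter in 4 of the 5 Osmr-/- libraries than in any WT library.

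Across the 30 tested members, none passed the main test of genotype. Limma on log2(normalised count + 1), with Benjamini-Hochberg adjustment over all genes tested and a threshold of 0.05, called 0 of the 30 members higher, beside 0.00749% of all genes, and 0 lower, beside 0.015%. At an unadjusted p under 0.05 there were 2 members higher and 3 lower, beside 7.5% and 10.5% of all genes (18% in either direction), so the members' share was no larger than that of all genes. EdgeR's quasi-likelihood test on the recovered reads called 0 in either direction (background 0.00749% in each). DESeq2 called 1 higher, Selp, beside 1.51% of genes, and 0 lower, beside 2.76%. The authors' deposited table also held 1 member at an adjusted p under 0.05, Selp, beside 1.67% of its genes higher and 2.79% lower. In none of the 30 did the genotypes fail to overlap, beside 1.09% of genes wholly higher and 1.42% wholly lower in Osmr-/-.

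Adhesion receptors had the lowest median of the 6 roles, and the other roles lay nearer to 0. Of the 30, 20 had a log2 fold change, or log2FC (Osmr-/- over WT), below 0, beside 53.2% of all genes, with a median of -0.24 beside -0.052. Among the adhesion receptors 9 of 10 tested genes lay below 0, with a median of -1.59. The medians were 0.055 for 6 granule and secreted proteins, -0.20 for 6 thrombin and nucleotide receptors, and -0.54 for 3 genes of integrin signalling. They were -0.12 for 2 eicosanoid enzymes and 0.26 for 3 genes of granule formation. For 6 receptors the values lay nearer to 0 in DESeq2, at -2.17 for Gp5, -1.33 for Gp1bb, -1.29 for Treml1, -0.81 for Clec1b, -0.31 for Gp1ba and -0.24 for Cd36, beside -2.76, -2.06, -2.27, -1.73, -1.46 and -1.76 in limma. With TMM scaling, none of the 30 changed sign. In bulk libraries, fewer cells that express a gene and less RNA per cell cannot be told apart.

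**Figure D3:**
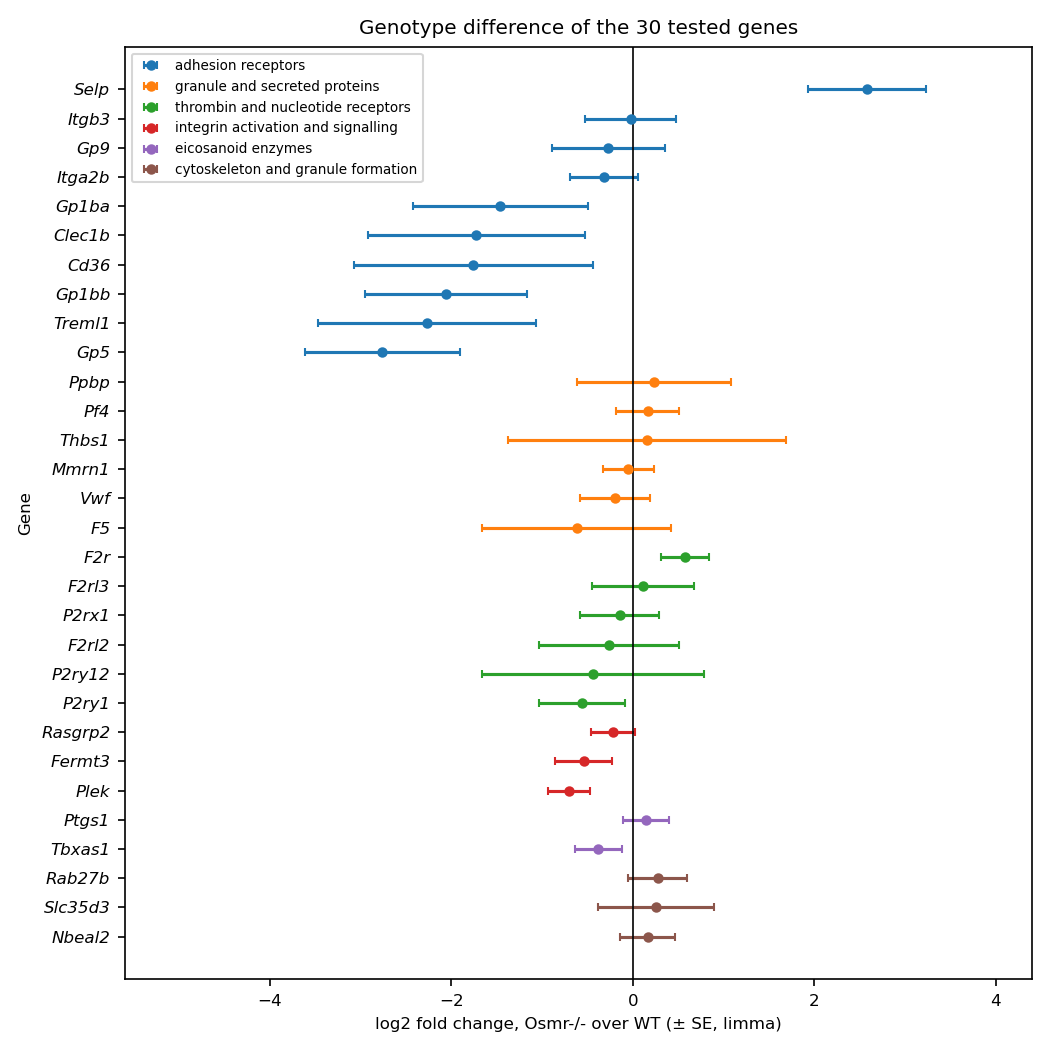
Log2 fold change, Osmr-/- over WT (horizontal, bars ± SE, limma), of the 30 tested members, coloured by role and sorted within it. Selp stands alone on the right at 2.58, and Gp5, Treml1 and Gp1bb lie farthest to the left at -2.76, -2.27 and -2.06.

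Selp, which encodes P-selectin, the granule protein that platelets and endothelial cells bring to their surface to catch leukocytes, had the highest log2FC of the members. Its normalised counts were 242, 34.3, 343, 140.0 and 644 in Osmr-/- 1, 2, 3, 5 and 6. In WT it had a lowest value of 19.2, a median of 31.9 and a highest value of 53.8. Osmr-/- 2 lay inside the WT range, and the other 4 Osmr-/- libraries lay above every WT library. The means were 281 ± 233 in Osmr-/- and 32.9 ± 11.8 in WT (SD, n = 5 and n = 6), a log2FC of 2.58 (SE 0.65, limma adjusted p 0.0967), or 5.98-fold on that scale. The gene did not pass limma or edgeR (edgeR adjusted p 0.0633). It passed DESeq2 (log2FC 3.10, adjusted p 7.44e-05). With the sign turned to Osmr-/- over WT, the authors' deposited table gave a log2FC of 2.27 (adjusted p 6.95e-05). The number sets were defined from these same data, so a fit with them is no separate support. With them as a covariate, limma called 1 member higher, Selp, beside 0.996% of all genes (log2FC 2.66, adjusted p 0.0450), and 0 lower, beside 1.53%. Among libraries 1 to 3 alone the log2FC was 2.42, and among libraries 4 to 6 alone it was 2.95. Without Osmr-/- 3, the library high in S100a8, it was 2.37, and without Osmr-/- 2 it was 3.19.

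Selp reads cannot be assigned to 1 strand with certainty. Exons of genes on the opposite strand cover at most 624 of its 4413 exon bases. The gene lies at chr1:164115264-164150026 on the plus strand of mm10, and GENCODE M21 places the non-coding gene Gm16548 on the opposite strand, overlapping exons of both Selp and F5. Gm16587, also on the opposite strand, overlaps exons of Selp as well, and averaged 14.5 in Osmr-/- and 2.63 in WT, with its highest value, 52.7, in Osmr-/- 6. Gm16548 had normalised counts of 68.0, 8.28, 60.6, 77.2 and 234 in Osmr-/- 1, 2, 3, 5 and 6, against 6.98 to 22.8 in WT. Its means were 89.6 in Osmr-/- and 14.3 in WT, with a log2FC of 2.05 (limma adjusted p 0.193). As for Selp, Osmr-/- 2 lay within the WT range and Osmr-/- 6 was highest. F5, the coagulation factor V gene, lies 1.81 kb from Selp. F5 had 22.7, 135, 0, 82.4 and 43.9 in the same 5 Osmr-/- libraries, and in WT it had a lowest value of 14.3, a median of 47.4 and a highest value of 69.5. Its log2 fold change was -0.62 (limma adjusted p 0.793), and 0.33 in edgeR, so no direction is given for it.

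Markers of endothelial cells, which also make P-selectin and von Willebrand factor, went in both directions between genotypes. The part of such cells in the Selp difference was not tested. Of the 15 endothelial markers 6 were tested, 3 above 0 and 3 below, with log2 fold changes from -0.92 (Ramp2) to 0.32 (Tek). Limma called 0 of them in either direction, with 0 at an unadjusted p under 0.05. The summed normalised count of all 15 ran from 1886 to 3165 in Osmr-/- and from 2249 to 3135 in WT. The endothelial cadherin gene Cdh5 averaged 4.53 in Osmr-/- and 0.848 in WT, and the capillary gene Plvap averaged 0 in Osmr-/- and 1.07 in WT. Emcn, which stem cells share with endothelium, averaged 1183 ± 353 in Osmr-/- and 1197 ± 505 in WT (SD, n = 5 and n = 6).

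The pattern of Selp over the 11 libraries, after each genotype's mean was subtracted, was most like that of Mier2, Fam102a, Slc30a1, Irf2bpl and Ggt5. Their Pearson correlations with it ran from 0.927 to 0.966. The 5 were picked as the highest among the genes tested outside the members, so these values are a description only. None of the 5 had a limma adjusted p under 0.536, and all 5 had a log2 fold change below 0, from -1.16 to -0.13.

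The genes of the GPIb-IX-V complex, the platelet receptor for von Willebrand factor, were lower on average but uneven. Gp5, the subunit that thrombin cleaves, had 1.13, 29.6, 1.29, 8.24 and 30.3 in the 5 Osmr-/- libraries, and in WT it had a lowest value of 26.9, a median of 61.5 and a highest value of 108. In Osmr-/- 1, 3 and 5 it lay under every WT library, and Osmr-/- 2 and 6 lay level with the lowest WT libraries. The means were 14.1 ± 14.7 in Osmr-/- and 63.8 ± 32.9 in WT (SD, n = 5 and n = 6), with a log2FC of -2.76 (SE 0.85, limma adjusted p 0.138). Gp1bb, the β chain of GPIb, had 112, 104, 1.29, 135 and 147 in Osmr-/-, and in WT it had a lowest value of 128, a median of 217 and a highest value of 435. Its means were 99.9 ± 57.8 in Osmr-/- and 251 ± 111 in WT (SD, n = 5 and n = 6), with a log2FC of -2.06 (SE 0.89, limma adjusted p 0.248). Osmr-/- 3 held 1 read of Gp1bb, and without that library the log2FC was -0.91, while that of Gp5 was -2.29. The log2 fold changes were -4.07 among libraries 1 to 3 and -1.12 among libraries 4 to 6 for Gp5, and -3.41 among libraries 1 to 3 and -0.27 among libraries 4 to 6 for Gp1bb. Gp1bb shares exon with the septin gene Sept5 and the read-through model Gm49601 on the same strand, so its reads are uncertain.

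Gp1ba, the chain that binds von Willebrand factor, had 6.80, 7.09, 130.2, 2.06 and 102 in Osmr-/-, and in WT it had a lowest value of 16.6, a median of 51.2 and a highest value of 117. In Osmr-/- 1, 2 and 5 it lay under every WT library, while in Osmr-/- 3 it exceeded them all. Its log2 fold change was -1.46 (limma adjusted p 0.444), and -0.31 in edgeR. On leaving out 1 library it ran from -2.16 (without Osmr-/- 3) to -0.80 (without Osmr-/- 5). Gp9, the smallest subunit, overlapped fully, at 162 ± 125 in Osmr-/- and 207 ± 175 in WT (SD, n = 5 and n = 6), with a log2FC of -0.27 (SE 0.62, limma adjusted p 0.858). The subunits did not vary as 1 unit between libraries. After each genotype's mean was subtracted, Pearson's r over the 11 libraries, as a description, was 0.592 for Gp1bb with Gp5 and -0.57 for Gp1ba with Gp1bb.

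**Figure D4:**
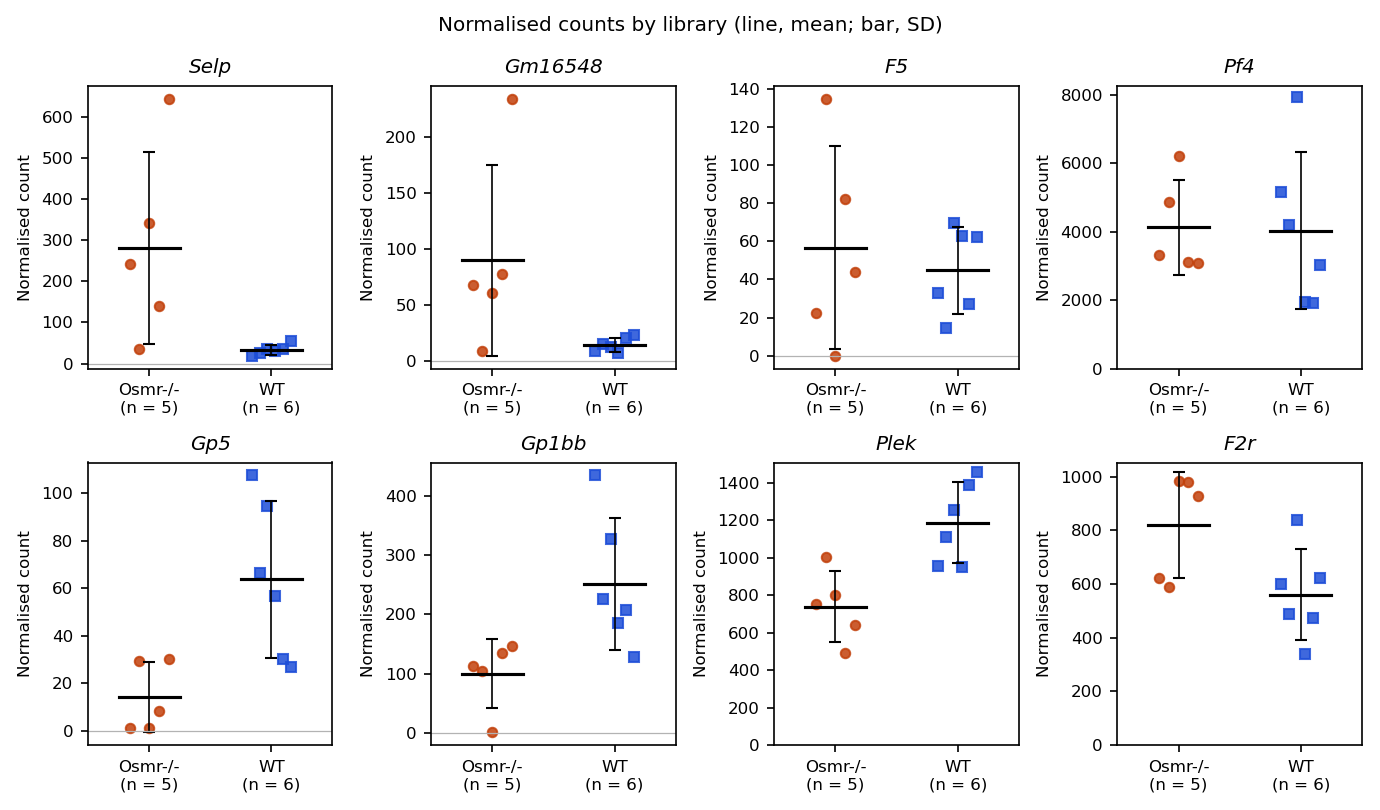
Normalised counts (vertical, linear, with 0 shown) of 7 members and of Gm16548, which overlaps Selp, with 1 point per library, Osmr-/- left of WT, the mean as a line and the SD as a bar. Selp and Gm16548 are spread upward in Osmr-/-, Gp5 and Gp1bb are shifted down with overlap at the low end of WT, and Pf4 shares its range, 3092 to 6209.7 in Osmr-/- and 1918 to 7945 in WT.

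Other platelet surface receptors were sparse. Treml1, an α-granule receptor, had 103, 73.3, 0, 13.4 and 2.93 in Osmr-/-, and in WT it had a lowest value of 4.04, a median of 102 and a highest value of 167. Its groups overlapped, with a log2FC of -2.27 (SE 1.20, limma adjusted p 0.338), and without 1 library the value ran from -3.01 (without Osmr-/- 1) to -1.33 (without Osmr-/- 3). Clec1b, the podoplanin receptor CLEC-2, ranged over 0 to 42.2 in Osmr-/- and 1.03 to 38.3 in WT, and Cd36, the thrombospondin receptor, over 0 to 88.8 in Osmr-/- and 4.04 to 67.6 in WT. The log2FC of Cd36 was -5.48 among libraries 1 to 3 and 3.10 among libraries 4 to 6. Leaving out 1 library gave -2.41 (without WT 6) to -1.05 (without Osmr-/- 1) for Clec1b and -2.72 (without Osmr-/- 6) to -1.10 (without Osmr-/- 2) for Cd36. The chains of the fibrinogen receptor overlapped widely between genotypes. Itga2b had 237, 158, 91.5, 293 and 193 in Osmr-/-, and in WT it had a lowest value of 147, a median of 240.0 and a highest value of 343, with a log2FC of -0.32 (SE 0.37, limma adjusted p 0.691). Itgb3, its β3 partner, averaged 132 ± 59.9 in Osmr-/- and 131 ± 72.4 in WT (SD, n = 5 and n = 6), with a log2FC of -0.025 (SE 0.50, limma adjusted p 0.984).

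No granule or secreted protein passed the test, and the ranges of Pf4 and Vwf overlapped widely. Pf4 had 3328, 4868, 6209.7, 3116 and 3092 in Osmr-/-, and in WT it had a lowest value of 1918, a median of 3612 and a highest value of 7945, with a log2FC of 0.16 (SE 0.35, limma adjusted p 0.848). Vwf had 131, 158, 99.2, 63.8 and 148 in Osmr-/-, and in WT it had a lowest value of 85.8, a median of 128 and a highest value of 203, with a log2FC of -0.20 (SE 0.38, limma adjusted p 0.83). Mmrn1 averaged 1859.7 ± 183 in Osmr-/- and 2073 ± 805 in WT (SD, n = 5 and n = 6), with a log2FC of -0.050 (SE 0.28, limma adjusted p 0.946). Ppbp was lower in libraries 4 to 6 of both genotypes. It averaged 309 in Osmr-/- and 484 in WT for libraries 1 to 3, but 82.7 in Osmr-/- and 74.6 in WT for libraries 4 to 6. Pf4 and Ppbp lie 2.37 kb apart on chromosome 5. Thbs1, the thrombospondin gene, ranged over 0 to 139 in Osmr-/- and 0 to 126 in WT.

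Among receptors for thrombin and nucleotides, F2r was the one with the lowest p. F2r encodes PAR1, a thrombin receptor that mouse platelets themselves lack. It had 624, 590.1, 985, 980.1 and 928 in Osmr-/-, and in WT it had a lowest value of 338, a median of 543 and a highest value of 839. In Osmr-/- 3, 5 and 6 it exceeded every WT library, and Osmr-/- 1 and 2 lay inside the WT range. Its means were 821 ± 197 in Osmr-/- and 559.8 ± 170.3 in WT (SD, n = 5 and n = 6), with a log2FC of 0.57 (SE 0.27, limma adjusted p 0.273). The log2FC was 0.19 among libraries 1 to 3 and 1.04 among libraries 4 to 6. F2rl2 and F2rl3 encode PAR3 and PAR4, the thrombin receptors of mouse platelets. F2rl3 averaged 141 ± 31.8 in Osmr-/- and 161 ± 84.8 in WT, a lower mean in Osmr-/- beside a log2FC of 0.11 (limma adjusted p 0.942), which was -0.41 without WT 5. F2rl2, which lies 78.4 kb from F2r on chromosome 13, averaged 282 in Osmr-/- and 549.9 in WT for libraries 1 to 3, but 85.1 in Osmr-/- and 117 in WT for libraries 4 to 6. P2ry1 and P2ry12, the ADP receptors, and P2rx1, an ATP-gated channel, had log2 fold changes of -0.56, -0.44 and -0.14 (limma adjusted p 0.554, 0.887 and 0.9).

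Genes that switch platelet integrins on had reads in every library, and all 3 had a log2FC below 0. Plek, the pleckstrin gene and a main protein kinase C substrate of platelets, had 751, 1006, 799, 492 and 643 in Osmr-/-, and in WT it had a lowest value of 951, a median of 1184 and a highest value of 1460.3. Osmr-/- 2 lay within the WT range and the other 4 Osmr-/- libraries lay under it. The means were 738 ± 191 in Osmr-/- and 1187 ± 216 in WT (SD, n = 5 and n = 6), with a log2FC of -0.70 (SE 0.23, limma adjusted p 0.149), and the DESeq2 adjusted p was 0.0554. Fermt3, the kindlin-3 gene, had 411, 316, 612, 607 and 684 in Osmr-/-, and in WT it had a lowest value of 449, a median of 710.0 and a highest value of 1274, with a log2FC of -0.54 (SE 0.31, limma adjusted p 0.381). Rasgrp2, the CalDAG-GEFI activator of Rap1, averaged 661 ± 162 in Osmr-/- and 764 ± 156 in WT (SD, n = 5 and n = 6), with a log2FC of -0.22 (SE 0.24, limma adjusted p 0.659). Plek shares exon sequence with Cnrip1 on the opposite strand, which ranged over 314 to 545 in Osmr-/- and 241 to 659.8 in WT. Annotated genes also overlap exons of Fermt3, Rasgrp2, Thbs1, P2ry1, P2ry12, Ptgs1 and Tbxas1 on the opposite strand, and of Clec1b and Nbeal2 on the same strand. The shared bases ran from 9 of 2546 exon bases in P2ry12 to 992 of 4291 in P2ry1. Without the strand setting, reads in the opposite-strand overlaps are uncertain. Reads in the same-strand overlaps are uncertain with any strand setting.

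The eicosanoid enzymes Ptgs1, which is cyclooxygenase-1, and Tbxas1, thromboxane synthase, make thromboxane. Ptgs1 averaged 713 ± 86.8 in Osmr-/- and 667 ± 197 in WT, and Tbxas1 averaged 442 ± 132 in Osmr-/- and 570.5 ± 127 in WT (SD, n = 5 and n = 6), with log2 fold changes of 0.15 and -0.38 (limma adjusted p 0.799 and 0.464). Of the genes for granules and platelet formation, Nbeal2, needed for α-granules, averaged 339 ± 88.1 in Osmr-/- and 308 ± 112 in WT. Rab27b and Slc35d3, which serve dense granules, averaged 482 ± 94.1 in Osmr-/- and 427 ± 180.3 in WT for Rab27b and 67.1 ± 37.7 in Osmr-/- and 68.1 ± 66.3 in WT for Slc35d3. Their limma adjusted p were 0.818, 0.692 and 0.871.

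Another 3 lists held 90 other genes of the pathway, of which 84 were tested. Limma called 0 of them in either direction, with 7 higher and 19 lower at an unadjusted p under 0.05, beside 7.5% and 10.5% of all genes. EdgeR called 0. DESeq2 called 1 higher and 9 lower, beside 1.51% and 2.76% of genes, and the authors' deposited table held 1 higher and 8 lower among 85 genes, beside 1.67% and 2.79%. The genotypes did not overlap in 5, which were Meis1, higher, and Gata1, Fyb, Tbxa2r and Pfn1, lower (named after their values were seen), beside 1.09% of all genes wholly higher and 1.42% wholly lower. The median log2FC was 0.088 for 20 genes of the list headed by transcription factors, -0.10 for 32 receptors and signal relays, and -0.11 for 32 genes of secretion and cytoskeleton.

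Among the factors that drive megakaryocyte and erythroid fate, the 3 of lowest p had lower means in Osmr-/-. Nfe2, needed for platelet release, averaged 1437 ± 330.3 in Osmr-/- and 3168 ± 1154 in WT (SD, n = 5 and n = 6), with a log2FC of -1.08 (SE 0.28, limma adjusted p 0.105). Gfi1b, a repressor shared by both lineages, averaged 381 ± 195 in Osmr-/- and 1046 ± 608 in WT, with a log2FC of -1.39 (SE 0.40, limma adjusted p 0.129). Gata1 had 129, 91.1, 67.0, 70.0 and 12.7 in Osmr-/-, and in WT it had a lowest value of 137, a median of 182 and a highest value of 378, with a log2FC of -1.77 (SE 0.54, limma adjusted p 0.138) and no overlap. In the authors' deposited table these 3 had adjusted p of 0.0100, 0.0289 and 0.0388. The 1 pathway gene higher in the authors' deposited table was the stem cell factor Meis1, named after its values were seen, with a log2FC of 0.51 (adjusted p 0.0243).

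Most red cell markers had lower values beside these factors, but the β-globin gene Hbb-bt, named after its values were seen, did not. Hbb-bt averaged 1162 ± 389.7 in Osmr-/- and 316 ± 208 in WT (SD, n = 5 and n = 6), with no overlap and a log2FC of 2.02 (SE 0.38, limma adjusted p 0.0640), and the DESeq2 adjusted p was 0.00110. Of 15 erythroid markers 13 were tested, 12 below 0 and 1 above, and the median log2FC was -2.25. Limma called 1 lower, Rhd, named after its values were seen, beside 0.015% of all genes. At an unadjusted p under 0.05 there were 11 lower and 1 higher, beside 10.5% and 7.5% of all genes. DESeq2 called 1 higher and 8 lower, beside 1.51% and 2.76% of genes. The authors' deposited table held 1 higher and 7 lower, beside 1.67% and 2.79%. With the number-set covariate, whose sets came from these same data, limma called 1 higher and 8 lower, beside 0.996% and 1.53%. The genotypes did not overlap in 6 of the markers, beside 1.09% of all genes wholly higher and 1.42% wholly lower. Their summed normalised count ran from 12905 to 19453 in Osmr-/- and from 19342 to 62284 in WT. Car2 was its largest part on average, with means of 11416 in Osmr-/- and 26493 in WT. Gata1, Gfi1b and Nfe2 are also expressed by erythroid progenitors, and the part of those cells in the 3 differences was not tested. Among libraries 4 to 6 the log2FC was -2.28 for Gata1, -0.53 for Gfi1b and -1.27 for Nfe2. Among libraries 1 to 3 it was -1.56, -2.07 and -1.01 for the same genes. Car1, an erythroid carbonic anhydrase gene, ranged over 225 to 2601 in Osmr-/- and 1711 to 22648 in WT. Its log2FC was -3.66 among libraries 1 to 3 and -1.35 among libraries 4 to 6. Itga2b, Pf4 and Vwf had log2 fold changes of -0.32, 0.16 and -0.20.

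In platelet signalling the lowest p belonged to Tbxa2r, the thromboxane receptor. It had 0, 0, 0, 35.0 and 9.76 in Osmr-/-, and in WT it had a lowest value of 60.4, a median of 82.2 and a highest value of 228, with a log2FC of -4.85 (SE 0.98, limma adjusted p 0.0650). Fyb, an adaptor of integrin activation, averaged 266 ± 69.4 in Osmr-/- and 498 ± 104 in WT, with a log2FC of -0.93 (SE 0.27, limma adjusted p 0.130), and Esam, an adhesion molecule of platelets, endothelium and stem cells, averaged 252 ± 108 in Osmr-/- and 528 ± 158 in WT, with a log2FC of -1.12 (SE 0.35, limma adjusted p 0.141). In secretion and cytoskeleton, the actin-binding profilin gene Pfn1 averaged 5906 ± 1661 in Osmr-/- and 17760.1 ± 6814 in WT (SD, n = 5 and n = 6), with a log2FC of -1.54 (SE 0.30, limma adjusted p 0.0640). The secretion factor Unc13d and the tubulin Tuba4a had -0.97 and -0.82 (limma adjusted p 0.147 and 0.156). Pfn1, Tbxa2r and Fyb had adjusted p of 1.75e-04, 0.0410 and 0.0161 in the authors' deposited table.

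**Figure D5:**
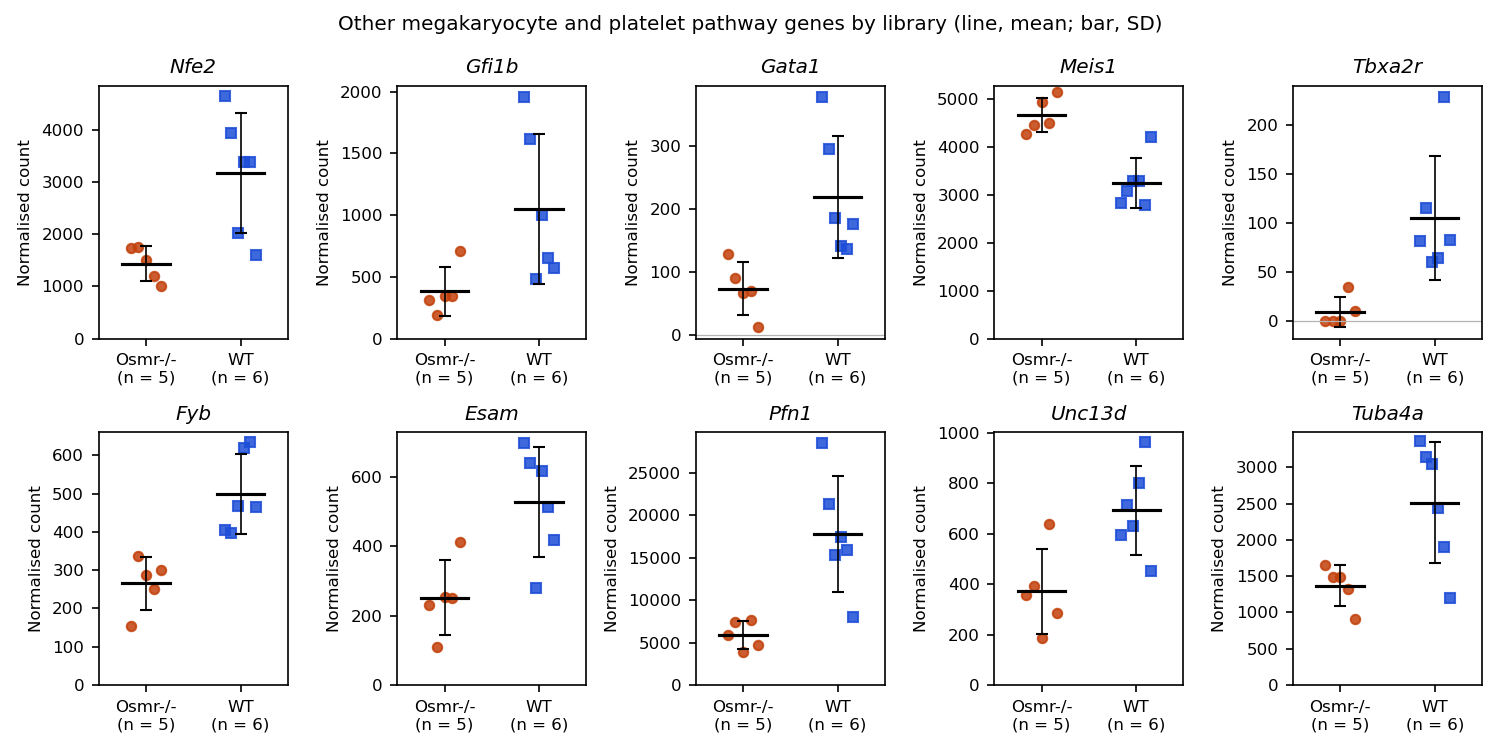
Normalised counts (vertical, linear, with 0 shown) of 10 pathway genes outside the 34, with 1 point per library, Osmr-/- left of WT, the mean as a line and the SD as a bar. Gata1, Tbxa2r, Fyb and Pfn1 lie lower in every Osmr-/- library than in any WT library, and Meis1 lies higher, over 4267 to 5139.7 in Osmr-/- and 2778 to 4200.0 in WT.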

How the data were processed

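The tools listed in the submitters' processing notes are Trimmomatic 0.36.6 (trimming), FastQC 0.72 (read quality), HISAT2 2.1.0 (alignment, with mm10 as the build), HTSeq 0.9.1 (gene counts) and a DESeq2 wrapper numbered 2.11.40.6. Neither annotation nor strand setting is given in the sources used here. The deposited signal is a count per gene that the authors divided by the library's size factor (normalised count). The authors' log2 scale tables hold DESeq2's regularised log and variance stabilised values. Their deposited comparison gives log2 fold changes, a Wald score with its standard error, p-values and adjusted p-values. It has no header. All 615 of its calls have the sign of WT minus Osmr-/-, so its sign is turned here.

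Each library's values were whole multiples of 1 step, to within 1.4e-09 of a whole number, which gave back whole reads. The main test was limma 3.58.1 in R 4.3.3 (mean-variance trend, genotype alone) on log2(normalised count + 1), for genes whose normalised count reached 10 in 5 libraries or more. The pseudocount shrinks a fold between low levels, and single libraries near 0 weigh heavily on this scale: Cd36 had a log2FC of -1.76 in limma and -0.24 in DESeq2. The recovered reads were also tested by edgeR 4.0.16 and by DESeq2 1.42.0, and the fits were tested on simulated data. Other alternatives were pseudocounts, filters, TMM, the authors' log2 values, number sets, replicate block and leaving out each library. Positions and exon lengths came from GENCODE M21 (GRCm38). The members and lists were chosen with earlier results of these data known. Named are Osmr, all members, the 3 genes of lowest p in each pathway list, and the 5 genes most correlated with Selp. Per-library values are given for members past a test in any tool, the 8 of lowest limma p, Vwf, Itga2b, Pf4 and Selp. The labels say that each library is a different mouse. Markers of endothelial, erythroid, monocyte, neutrophil, mast cell and lymphoid origin, and of the stem cell gate, were also read. 1 pathway gene is counted in its list but not reported here by name.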

Additional observations from a re-analysis of the deposited data

Results flagged for a closer look

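In 5 of 60 member and genotype combinations, 1 library lay far from the others of its genotype on the log2 scale by Dixon's gap test, each time on the low side. Chance gives such a gap in about 1 of 20 combinations. Gp1bb had a normalised count of 1.29 in Osmr-/- 3, against 104 to 147 in the other 4 Osmr-/- libraries. Itgb3 had a normalised count of 37.1 in Osmr-/- 5, against 128 to 199.8 in the other 4 Osmr-/- libraries. Clec1b had a normalised count of 1.03 in WT 6, against 28.1 to 38.3 in the other 5 WT libraries. Treml1 had a normalised count of 4.04 in WT 5, against 62.9 to 167 in the other 5 WT libraries. F2rl3 had a normalised count of 20.2 in WT 5, against 126 to 277 in the other 5 WT libraries.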

How the results depend on the processing

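Over all genes, limma called 1 higher and 2 lower, and 1 higher and 1 lower with pseudocount 0.5, 13 higher and 42 lower with pseudocount 10, 17 higher and 49 lower with the authors’ VST values, 18 higher and 51 lower with their rLog values and 133 higher and 204 lower with the number-set covariate. It called 0 genes each way without a filter, with a filter of 50, with the replicate block and within either number set. EdgeR called 1 higher and 1 lower, DESeq2 238 higher and 436 lower, and DESeq2 on filtered genes 165 higher and 335 lower. Leaving out 1 library gave 0 to 30 higher and 0 to 92 lower, both highest without WT 6. Members called higher were 1 in DESeq2 and 1 with the number-set covariate, Selp both times, and 0 in each other setting; members called lower were 0 in every setting run. Pathway genes called lower were 2 with pseudocount 10, 2 with VST, 2 with rLog, 9 in DESeq2, 8 in DESeq2 on filtered genes, 6 with the covariate and 0 to 3 without 1 library. Same-numbered libraries were correlated at 0.0203 to 0.0986 over 5 numbers, and 1 Osmr-/- library matched its own number best. These values gave no sign that the numbers pair mice, but cannot show that they do not. The Osmr difference in normalised count ran from -1.04 to 0.30 without 1 library.

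Of the 30 tested members, 19 changed sign in at least 1 setting, and the cause was not tested. They included Cd36 and Clec1b, whose log2 fold changes in the main test were -1.76 and -1.73. With the authors’ VST values the values were Itgb3 0.00059 and F2rl3 -0.0080. With the authors’ rLog values the values were F5 0.013. With edgeR the values were Ppbp -0.36, F5 0.33, F2rl3 -0.20 and Slc35d3 -0.034. With DESeq2 the values were Itgb3 0.0032, Ppbp -0.35, F5 0.34, F2rl3 -0.19 and Slc35d3 -0.021. With DESeq2 on filtered genes (added after seeing the data) the values were Itgb3 0.0077, Ppbp -0.35, F5 0.34, F2rl3 -0.19 and Slc35d3 -0.017. With the replicate block the values were Itgb3 0.21, Pf4 -0.0086 and Ppbp -0.12. With the number-set covariate the values were Ppbp -0.016. With numbers 1 to 3 alone the values were Itgb3 0.41, Vwf 0.030, Pf4 -0.26, Ppbp -0.59, Thbs1 -1.26, F2rl3 -0.10 and Rab27b -0.26. With numbers 4 to 6 alone the values were Gp9 0.33, Clec1b 0.49, Cd36 3.10, Mmrn1 0.56, F5 0.34, F2rl2 0.10, P2ry1 0.26, P2ry12 0.063, P2rx1 0.012, Ptgs1 -0.32, Nbeal2 -0.15 and Slc35d3 -0.67. Ranges on leaving out 1 library, for the members that changed sign, were Gp9 -0.65 to 0.078, Itgb3 -0.23 to 0.38, Vwf -0.32 to 0.012, Pf4 -0.014 to 0.40, Ppbp -0.38 to 0.76, Thbs1 -0.74 to 1.05, Mmrn1 -0.23 to 0.063, F5 -1.22 to 0.56, F2rl2 -0.94 to 0.053, F2rl3 -0.41 to 0.33, P2ry12 -0.99 to 0.36, P2rx1 -0.42 to 0.072, Ptgs1 -0.0035 to 0.24 and Slc35d3 -0.010 to 0.65. The other 11, Selp, Gp5, Gp1bb, Gp1ba, Treml1, Plek, Fermt3, Rasgrp2, Tbxas1, Itga2b and F2r, kept their sign in every setting run. Gp5, Gp1ba, Gp1bb, Clec1b, Cd36, P2ry12, Thbs1, F5 and Treml1 had at most 3 reads in at least 1 library.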

Other observations

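The platelet genes stood beside other lineage transcripts in the same libraries. Neutrophil markers had 5 of 6 tested genes above 0 and summed to 4689 to 29112 in Osmr-/- and 3413 to 5509.6 in WT; the highest sum was that of Osmr-/- 3. Monocyte and macrophage markers had 3 of 7 tested genes above 0 and summed to 4377 to 7217 in Osmr-/- and 6161 to 14961 in WT. Mast cell and basophil markers had 1 of 2 tested genes above 0 and summed to 166 to 449 in Osmr-/- and 103 to 1132 in WT. Lymphoid markers had 2 of 5 tested genes above 0 and summed to 11141 to 19422 in Osmr-/- and 12902 to 23565 in WT. A few genes made up much of these sums. Ptprcap averaged 8765 in Osmr-/- and 10861 in WT, and Nkg7 5419 in Osmr-/- and 5239 in WT, while Cd3g, Il7r and Rag1 had 0 reads. Lyz2 averaged 5131 in Osmr-/- and 8708 in WT, and Prtn3 4831 in Osmr-/- and 3861 in WT. Cpa3 averaged 277 in Osmr-/- and 529 in WT. Stem cell gate genes had 5 of 11 tested genes above 0 and summed to 20544 to 30244 in Osmr-/- and 19547 to 27328 in WT. Limma called 0 genes of these 5 lists in either direction; at an unadjusted p under 0.05 there were 1 higher among neutrophil markers, 1 lower among monocyte markers, 1 higher and 1 lower among lymphoid markers and 1 lower in the gate list, beside 7.5% of all genes higher and 10.5% lower. EdgeR called 0 in them. DESeq2, run on all genes, called 1 lower, the monocyte receptor gene Cd14, beside 2.76% of genes. Cd14 had 0 reads in every Osmr-/- library and a mean of 17.5 ± 18.8 in WT (SD, n = 6, DESeq2 adjusted p 0.0143 across all genes). Of tested members, Osmr-/- 1, 2, 3, 5 and 6 had 3, 4, 5, 2, 1 with at most 3 reads, and WT 1 to 6 had 0, 1, 0, 0, 2, 2. For all genes tested, only the share with 0 reads, a stricter measure, is at hand. It was 3.58%, 4.66%, 5.13%, 1.83% and 2.27% in Osmr-/- 1, 2, 3, 5 and 6. In WT 1 to 6 that share was 3.05%, 1.00%, 1.80%, 1.08%, 1.52% and 2.13%.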
